A study of Mus musculus with 4 samples.

Results

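The 28 genes of sterol and fatty acid synthesis were followed across 4 RNA-seq libraries of mouse mammary cells that had been grown with or without baicalin, a plant flavonoid. The genes were chosen by name, and all 28 were found among the 54446 genes of the deposited table and had a value above 0 in every library, as 17787 genes did. They comprise 18 cholesterol enzymes (7 of the mevalonate and isoprenoid steps and 11 of the squalene and sterol steps), 6 fatty acid enzymes, 3 SREBP regulators and the sterol carrier gene Stard4. The cells were sorted from mammary glands of wild type C57BL/6 mice, labelled basal or luminal, embedded in Matrigel as a 3D culture, and fed with medium that held either DMSO or 100 μM baicalin. Each of the 4 conditions is 1 library, so no comparison of a pair of libraries has replicates, and no SD or p-value is given. An additive fit of baicalin over both labels, which would take the difference between the labels as its error, was not run. Neither the number of pooled mice, nor their age, nor the days of culture before RNA extraction is given in the labels. The comparison asks how baicalin shifts the transcriptome of each epithelial layer of the gland.

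Levels are fragments scaled to exon length and to the counted fragments of the library (FPKM), so they can be compared between genes. Between 19356103 and 20648791 fragments lay behind a library, and the members rested on 69 to 51991 fragments each. Changes are given as the FPKM ratio with a 95% exact Clopper-Pearson interval from the recovered fragments, which covers counting error only and not the variation between cultures. They are also given as log2((FPKM + 1)/(FPKM + 1)), called the log2 change, a scale that shrinks the change of a gene near or below 1 FPKM. A gene is said to pass the threshold where its log2 change exceeds 1 in size.

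The cell labels were first set against marker genes. With DMSO, the luminal label had the higher level of all 10 basal markers, which summed to 5404 FPKM there and to 1761 FPKM under the basal label, and the basal label had the higher level of 9 of 10 luminal markers, which summed to 4180.0 FPKM there and to 1228 FPKM under the luminal label. The same counts held between the baicalin libraries. The markers therefore go against the labels, and "basal" and "luminal" are used below only as names of libraries. With baicalin, the basal markers summed to 479 FPKM and the luminal markers to 2874 FPKM in the library labelled basal, against 7199 and 1029 FPKM in the one labelled luminal. Of the 10 basal markers, 1 was higher with baicalin than with DMSO under the basal label (Myh11, near 0), where 50.9% of all genes were higher. Among the others there, Krt5 went from 128 to 3.01 FPKM, Krt14 from 1494 to 417 FPKM and Trp63 from 6.01 to 0.31 FPKM. Under the luminal label 5 of the 10 were higher, as were 45.6% of all genes. There, keratin genes such as Krt17 (358 to 1140.0 FPKM) went up and contractile genes such as Acta2 (555 to 417 FPKM) and Tagln (97.6 to 47.2 FPKM) went down. Not every contractile gene did so under the luminal label, since Myh11 went from 9.50 to 11.6 FPKM there. Of the 10 luminal markers, 3 were higher with baicalin under the basal label (Cldn3, Cldn4 and Cited1) and 2 under the luminal label (Cldn3 and Cldn4). Adipocytes, which also make fatty acids, left little signal, and the 7 adipocyte markers summed to 0.572 and 1.30 FPKM in the libraries labelled basal (DMSO, then baicalin) and to 17.2 and 5.96 FPKM in those labelled luminal, 3 and 0 of the 7 were higher with baicalin, and Lep, Cidec and Cfd were listed at 0 in both libraries labelled basal. Over all 4 libraries, the summed levels ran from 2.60 to 10.4 FPKM for 6 fibroblast markers and from 0.823 to 3.25 FPKM for 4 endothelial markers. The 5 immune markers summed to between 5.41 and 53.7 FPKM, nearly all of it from Cd68, a lysosomal protein gene, and Lyz2, a lysozyme gene of myeloid cells. With the basal label Cd68 had 7.49 FPKM with DMSO and 51.5 with baicalin and Lyz2 had 8.84 and 2.17, while Ptprc, the gene of the pan-leukocyte antigen CD45, stayed at or below 0.0138 FPKM. In such bulk RNA, fewer cells of one kind and less RNA per cell cannot be told apart, and the part that a shift in cell makeup has in the values below was not tested.

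Cholesterol and fatty acids are both built from acetyl-CoA in the cytosol. The mevalonate steps turn acetyl-CoA into isoprenoid units, which are joined to squalene, closed to the ring of lanosterol and trimmed to cholesterol, while acetyl-CoA carboxylase and fatty acid synthase make palmitate that elongases lengthen and desaturases make unsaturated. Genes of both branches are textbook targets of the SREBP transcription factors, membrane proteins that are carried to the Golgi and cleaved when sterols in the endoplasmic reticulum run low, and that the Insig proteins hold back when sterols are plentiful. SREBP-2 is known mainly for the cholesterol branch and SREBP-1 mainly for the fatty acid branch, and in the lactating mammary gland both branches feed milk fat.

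SREBPs are known to bind sterol elements and E-boxes beside NF-Y, a factor that binds CCAAT boxes, so the promoters of the members were searched for these letters. RefSeq windows on GRCm38.p6, from 250 bases before to 50 bases after an annotated start, were found for 22 of the 28 genes, 27 windows in all. Fdft1, Fdps, Scd1, Scd2, Sqle and Stard4 had no entry. On either strand, CCAAT lay in 20 of the 27 windows (74.1%), against 37.4% of all 32851 windows in the table. The E-box CACGTG lay in 4 windows, those of Dhcr7, Hsd17b7, Insig1 and Sc5d, against 7.15% of all windows. The sterol element TCACNCCAC lay in 1 window, that of Hmgcs1, against 1.24% of all. By gene, 14 of the 15 cholesterol enzymes with an entry held CCAAT, Acat2 being the exception, as did Acly and Fasn but not Acaca or Elovl6, and all 3 regulators. A match describes letters in a window and is not a measured binding site. The 250 bases before the start are shown for 6 genes that span the responses described below: Hmgcs1, Cyp51, Idi1 and Acat2, which had lower ratios than most members in the libraries labelled basal, Hsd17b7, which had the highest ratio in those labelled luminal, and Fasn, a fatty acid enzyme that was higher with baicalin in both pairs. Each runs 5′ to 3′ on the strand of its gene, and capitals mark matches to the 3 motifs on either strand, which in Fasn include a CCAAT and its reverse complement that overlap.
Hmgcs1 promoter, chr13:119690101-119690350, plus strand: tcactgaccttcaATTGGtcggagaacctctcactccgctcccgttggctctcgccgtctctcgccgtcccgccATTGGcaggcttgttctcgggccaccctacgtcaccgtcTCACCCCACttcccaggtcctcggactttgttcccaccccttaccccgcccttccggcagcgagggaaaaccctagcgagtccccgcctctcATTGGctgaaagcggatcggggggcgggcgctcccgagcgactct
Cyp51 promoter, chr5:4104698-4104947, minus strand: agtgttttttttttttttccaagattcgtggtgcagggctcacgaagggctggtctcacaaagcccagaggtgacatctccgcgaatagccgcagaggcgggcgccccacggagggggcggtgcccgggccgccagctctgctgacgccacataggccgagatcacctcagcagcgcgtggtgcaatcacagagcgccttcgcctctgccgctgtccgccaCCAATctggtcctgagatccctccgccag
Idi1 promoter, chr13:8885356-8885605, plus strand: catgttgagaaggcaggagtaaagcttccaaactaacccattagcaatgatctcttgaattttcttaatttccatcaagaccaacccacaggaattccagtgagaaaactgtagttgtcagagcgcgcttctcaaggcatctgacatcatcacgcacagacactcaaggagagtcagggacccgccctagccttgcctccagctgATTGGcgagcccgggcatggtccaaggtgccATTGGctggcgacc
Acat2 promoter, chr17:12960726-12960975, minus strand: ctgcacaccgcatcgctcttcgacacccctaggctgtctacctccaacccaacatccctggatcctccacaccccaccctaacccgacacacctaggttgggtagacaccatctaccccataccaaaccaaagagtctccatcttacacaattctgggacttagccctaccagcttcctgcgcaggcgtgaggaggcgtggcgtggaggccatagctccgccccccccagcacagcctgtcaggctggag
Hsd17b7 promoter, chr1:169969206-169969455, minus strand: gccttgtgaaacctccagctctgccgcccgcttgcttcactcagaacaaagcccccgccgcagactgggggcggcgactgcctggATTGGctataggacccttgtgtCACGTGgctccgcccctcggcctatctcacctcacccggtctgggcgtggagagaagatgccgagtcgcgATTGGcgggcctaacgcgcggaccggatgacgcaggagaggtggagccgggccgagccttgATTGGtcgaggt
Fasn promoter, chr11:120824548-120824797, minus strand: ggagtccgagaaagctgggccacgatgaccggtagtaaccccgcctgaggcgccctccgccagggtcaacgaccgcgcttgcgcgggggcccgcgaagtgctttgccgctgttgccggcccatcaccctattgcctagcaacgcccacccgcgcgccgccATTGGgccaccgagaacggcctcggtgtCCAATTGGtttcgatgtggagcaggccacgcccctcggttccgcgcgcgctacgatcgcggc

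The levels of the members spanned 0.776 to 479 FPKM. Scd2 was the most abundant member in every library, at 377 to 479 FPKM, followed by Scd1 at 171 to 343 FPKM, and these desaturases made up 78.2% to 80.2% of the summed FPKM of the 6 fatty acid enzymes. Among cholesterol enzymes Hmgcs1 was the highest in every library and Cyp51 next, except that Fdft1 at 24.9 FPKM stood above Cyp51 at 23.5 FPKM in the baicalin library labelled basal, and Fdps and Tm7sf2 were the lowest. Across the 4 libraries, 21 of the 28 members had their lowest value in the baicalin library labelled basal, 4 in the baicalin library labelled luminal and 3 in the DMSO library labelled luminal, and none had it in the DMSO library labelled basal. For the cholesterol enzymes alone this was 16 of 18 in the baicalin library labelled basal, the exceptions being Msmo1 and Dhcr7. The share of all genes that were lowest in that library was not counted, so these counts have no background beside them.

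**Figure D1:**
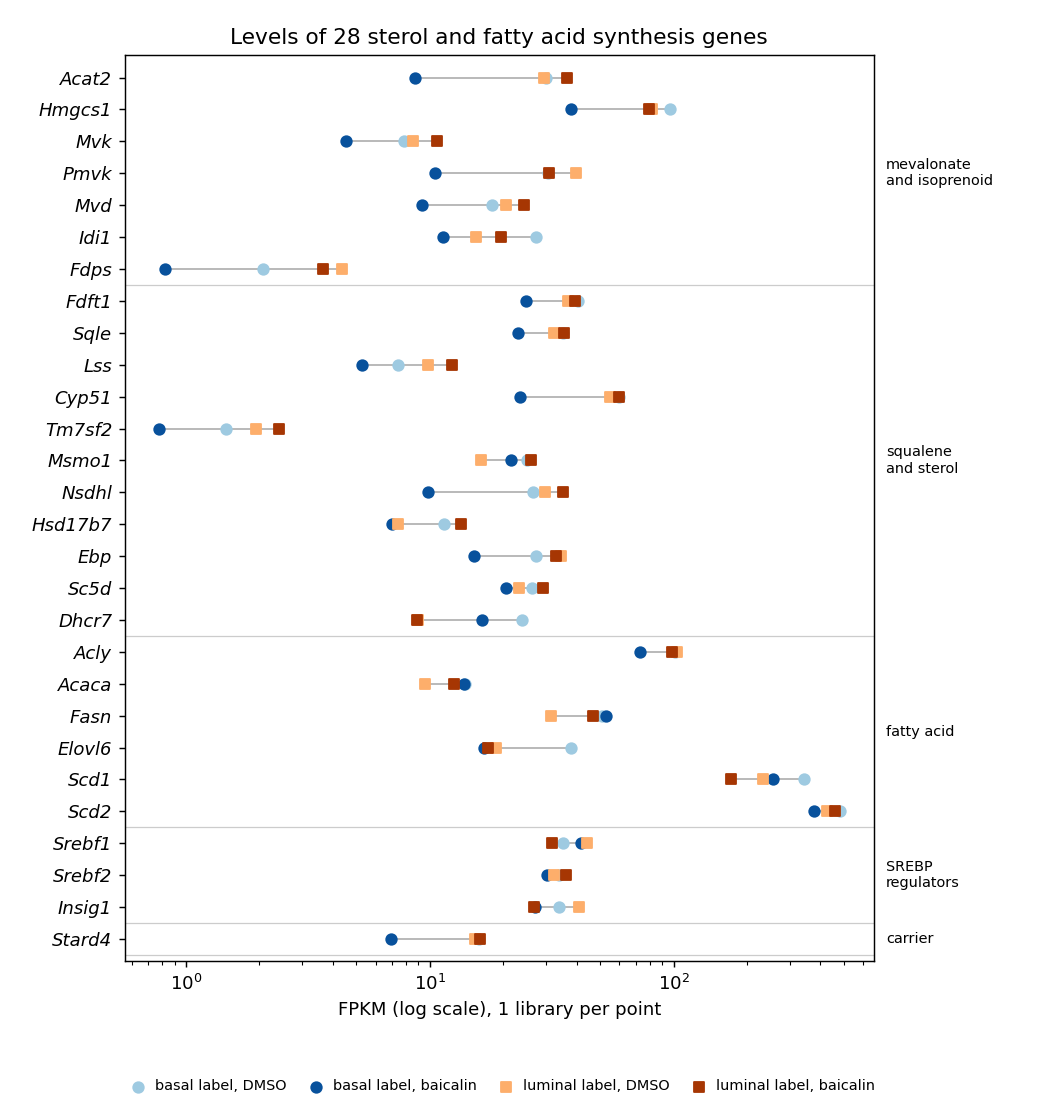
FPKM of each of the 28 genes (x axis, log scale) in each of the 4 libraries, with circles for libraries labelled basal, squares for those labelled luminal, and dark fill for baicalin. The dark circle of the baicalin library labelled basal lies at the left end for 21 of the 28 genes.

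In the libraries labelled basal, all 18 cholesterol enzymes were lower with baicalin than with DMSO, and their summed level went from 497 to 251 FPKM. Among all genes, 49.1% were lower. Their ratios ran from 0.292 to 0.853 with a median of 0.545, and their median log2 change was -0.72 beside 0.01 over all 17787 genes. Of the 18, 6 passed the threshold downwards and none upwards, where 3.33% of all genes passed it downwards. The counting interval lay below 1 for all 18, as it did for 26.3% of all genes and 37.7% of genes with at least 5 FPKM in a library of the pair.

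The mevalonate and isoprenoid enzymes had the lower ratios, with a median ratio of 0.396 over 7 genes. This median is the ratio of Fdps, whose value is uncertain for the reason given below. Only 3 of the 7 genes have neither a near-identical copy nor an exon overlap, Pmvk, Mvd and Mvk, with ratios of 0.344, 0.517 and 0.578. Acat2 (ENSMUSG00000023832, chromosome 17, 12942890 to 12960747 of GRCm38), the thiolase that condenses acetyl-CoA to acetoacetyl-CoA, had 29.9 FPKM with DMSO and 8.74 with baicalin in the libraries labelled basal, and 29.4 and 36.4 in those labelled luminal. Its ratio of 0.292 (0.263 to 0.325) in the libraries labelled basal was the lowest of the 28 members, though the gene shares a stretch of sequence with Tcp1, and the library with baicalin and the basal label stood well below the other 3. Pmvk (ENSMUSG00000027952, chromosome 3, 89454541 to 89469013), phosphomevalonate kinase, had 30.5 FPKM with DMSO and 10.5 with baicalin in the libraries labelled basal, and 39.7 and 30.9 in those labelled luminal, a basal-label ratio of 0.344 (0.304 to 0.388). Hmgcs1 (ENSMUSG00000093930, chromosome 13, 119690379 to 119708260), the synthase that makes HMG-CoA, had 96.4 FPKM with DMSO and 37.8 with baicalin in the libraries labelled basal, and 81.8 and 79.5 in those labelled luminal, a ratio of 0.392 (0.377 to 0.408). Its promoter is the only member window with the sterol element. Idi1 (ENSMUSG00000058258, chromosome 13, 8885501 to 8892451), the isomerase of isopentenyl diphosphate, had 27.2 FPKM with DMSO and 11.3 with baicalin in the libraries labelled basal, and 15.5 and 19.6 in those labelled luminal, a ratio of 0.416 (0.382 to 0.452). These 4 genes passed the threshold, with log2 changes of -1.67, -1.46, -1.33 and -1.20.

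The other 3 genes of the branch were lower as well without passing the threshold. Mvd, the decarboxylase that makes isopentenyl diphosphate, had 18.0 and 9.31 FPKM with DMSO and baicalin in the libraries labelled basal, a ratio of 0.517 (0.453 to 0.589), and 20.5 and 24.3 FPKM in those labelled luminal. Mvk, mevalonate kinase, had 7.87 and 4.55 FPKM in the libraries labelled basal, a ratio of 0.578 (0.492 to 0.679), and 8.58 and 10.7 FPKM in those labelled luminal. Fdps, farnesyl diphosphate synthase, had 2.07 and 0.820 FPKM, a ratio of 0.396 (0.296 to 0.526), and 4.37 and 3.65 FPKM in the same order. Although the ratio of Fdps was among the lowest of the members, its log2 change was -0.75, since 1 FPKM is large beside its level. Its value is also uncertain because the gene shares 1062 aligned bases at 98.9% identity with the processed pseudogene Gm3571, which held 252 fragments in the DMSO library labelled basal where Fdps held 173. Summed over both and scaled to depth, the ratio was 0.438.

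The squalene and sterol enzymes were lower to a smaller degree on the whole, with a median ratio of 0.615 over 11 genes in the libraries labelled basal. Nsdhl (ENSMUSG00000031349, chromosome X, 72918557 to 72958514) and Cyp51 (ENSMUSG00000001467, chromosome 5, 4081145 to 4104746) were the 2 that passed the threshold. Nsdhl, a dehydrogenase that removes methyl groups of the sterol ring, had 26.4 FPKM with DMSO and 9.88 with baicalin in the libraries labelled basal, and 29.6 and 35.4 in those labelled luminal, a basal-label ratio of 0.374 (0.339 to 0.412). Cyp51, the lanosterol demethylase of the cytochrome P450 family, had 59.7 FPKM with DMSO and 23.5 with baicalin in the libraries labelled basal, and 54.9 and 59.5 in those labelled luminal, a ratio of 0.393 (0.374 to 0.414). In both, the baicalin library labelled basal was the single low library. Tm7sf2, a sterol reductase, had only 69 to 219 fragments per library and 1.46 and 0.776 FPKM in the libraries labelled basal, a ratio of 0.532 (0.388 to 0.713), beside 1.95 and 2.41 FPKM in those labelled luminal.

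Ebp, the sterol isomerase, had 27.3 and 15.2 FPKM in the libraries labelled basal, a ratio of 0.557 (0.508 to 0.612), and Hsd17b7, the reductase of keto-sterols, had 11.5 and 6.99 FPKM, a ratio of 0.609 (0.554 to 0.669). For the enzymes that make and close squalene, the ratios were 0.615 (0.582 to 0.649) for Fdft1, squalene synthase, from 40.5 to 24.9 FPKM, 0.651 (0.620 to 0.685) for Sqle, squalene epoxidase, from 35.3 to 23.0 FPKM, and 0.716 (0.663 to 0.773) for Lss, lanosterol synthase, from 7.39 to 5.29 FPKM. These 3 successive steps thus had ratios nearer to 1 than the steps that make the isoprenoid units. The ratios nearest to 1 were those of Msmo1, the methylsterol oxidase, from 25.2 to 21.5 FPKM and a ratio of 0.853 (0.809 to 0.899), and of Sc5d, a sterol desaturase, from 26.2 to 20.6 FPKM and a ratio of 0.788 (0.743 to 0.835). Dhcr7, the reductase of the last step to cholesterol in one branch, went from 23.9 to 16.4 FPKM, a ratio of 0.686 (0.647 to 0.727). Stard4, which codes for a soluble protein that moves cholesterol between membranes, followed the stronger group with 16.0 FPKM with DMSO and 6.91 with baicalin in the libraries labelled basal, and 15.4 and 16.1 in those labelled luminal, a basal-label ratio of 0.432 (0.397 to 0.470) and a log2 change of -1.10.

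**Figure D2:**
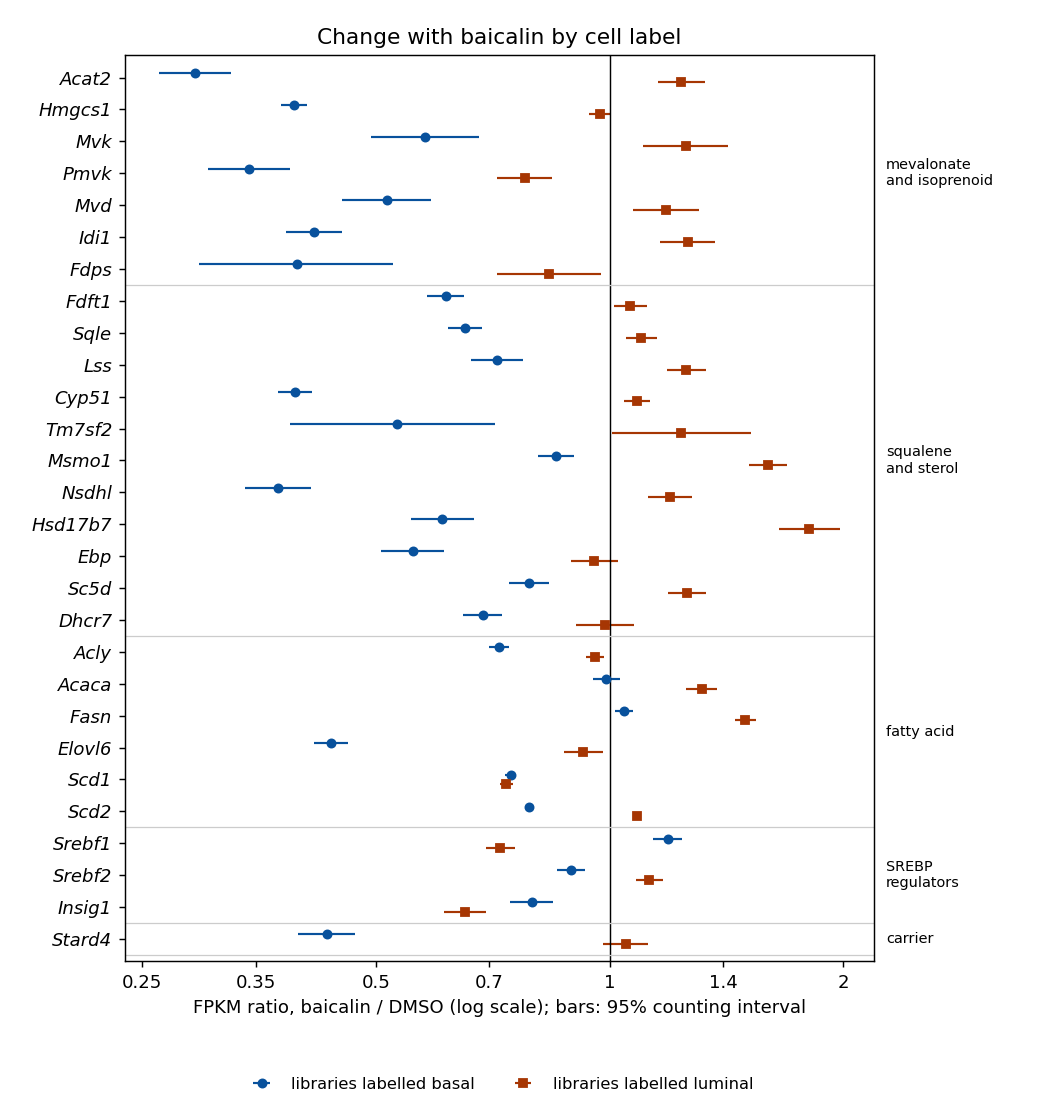
FPKM ratio of baicalin to DMSO for each gene (x axis, log scale) with 95% counting intervals, circles for the libraries labelled basal and squares for those labelled luminal. The circles of all 18 cholesterol enzymes lie left of 1, between 0.292 and 0.853, while their squares lie between 0.777 and 1.81.

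The fatty acid enzymes did not follow as a block in the libraries labelled basal. Their median ratio was 0.766 over 6 genes and their median log2 change -0.38. Over the 2 of them with neither a near-identical copy nor an exon overlap, the median log2 change was -0.21. Of the 6 intervals 4 lay below 1, as for 26.3% of all genes and 37.7% of genes with at least 5 FPKM in a library of the pair. That of Fasn lay above 1, as for 28.1% of all genes, and that of Acaca across 1. Elovl6 (ENSMUSG00000041220, chromosome 3, 129532355 to 129638495), the elongase that acts on palmitate, was the only one past the threshold, with 38.1 FPKM with DMSO and 16.7 with baicalin in the libraries labelled basal, and 18.7 and 17.3 in those labelled luminal, a basal-label ratio of 0.437 (0.415 to 0.460). Here the DMSO library labelled basal was the high one, and the other 3 lay close together. Acly, which makes cytosolic acetyl-CoA from citrate for both branches, went from 101 to 72.6 FPKM, a ratio of 0.719 (0.698 to 0.741). Acaca, acetyl-CoA carboxylase, had 14.0 and 13.8 FPKM, a ratio of 0.99 (0.95 to 1.03), and Fasn, fatty acid synthase, had 50.8 and 52.9 FPKM, a ratio of 1.04 (1.02 to 1.07). The enzymes that commit acetyl-CoA to fatty acids therefore differed little between these libraries.

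Scd1 (ENSMUSG00000037071, chromosome 19, 44394455 to 44407879) and Scd2 (ENSMUSG00000025203, chromosome 19, 44293674 to 44306864) code for stearoyl-CoA desaturases and are neighbours on the chromosome. Scd1 had 343 FPKM with DMSO and 256 with baicalin in the libraries labelled basal, and 233 and 171 in those labelled luminal. Its ratios of 0.745 (0.733 to 0.757) and 0.736 (0.722 to 0.751) were the only pair among the 28 members whose intervals overlapped between the labels. Scd2 had 479 FPKM with DMSO and 377 with baicalin in the libraries labelled basal, and 425 and 461 in those labelled luminal, with ratios of 0.787 (0.777 to 0.798) and 1.08 (1.07 to 1.10). Scd1 was thus lower with baicalin in both pairs and Scd2 only in that labelled basal, and the level of Scd1 relative to Scd2 was 0.717 and 0.678 in the libraries labelled basal, DMSO first, and 0.548 and 0.372 in those labelled luminal. The 2 genes share a stretch of 620 bases at 95.6% identity, so a part of their fragments could be assigned to either.

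The SREBP regulators stayed within narrower limits, at 26.7 to 44.0 FPKM over the 3 genes and 4 libraries. Srebf2 (ENSMUSG00000022463, chromosome 15, 82147181 to 82205379), the gene of SREBP-2, had 34 FPKM with DMSO and 30.4 with baicalin in the libraries labelled basal, and 32.4 and 36.4 in those labelled luminal, ratios of 0.892 (0.856 to 0.929) in the pair labelled basal and 1.12 (1.08 to 1.17) in that labelled luminal. Insig1 (ENSMUSG00000045294, chromosome 5, 28071363 to 28078662), which is itself a textbook SREBP target, had 34 FPKM with DMSO and 26.9 with baicalin in the libraries labelled basal, and 41.1 and 26.7 in those labelled luminal, a ratio of 0.793 (0.743 to 0.846) in the pair labelled basal and 0.650 (0.611 to 0.692) in that labelled luminal. Srebf1 (ENSMUSG00000020538, chromosome 11, 60199089 to 60222581), the gene of SREBP-1, had 35.3 FPKM with DMSO and 41.9 with baicalin in the libraries labelled basal, and 44.0 and 31.8 in those labelled luminal, ratios of 1.19 (1.14 to 1.24) and 0.723 (0.692 to 0.755). Srebf1 was therefore higher with baicalin where the cholesterol enzymes were lower, and lower where most of them were higher. None of the 3 passed the threshold in either pair, and the RNA of Srebf1 and Srebf2 does not show how much of the protein was cleaved and active.

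In the libraries labelled luminal, no member passed the threshold in either direction, where 2.37% of all genes passed it upwards and 1.59% downwards. Of the 18 cholesterol enzymes, 13 were higher with baicalin, as were 45.6% of all genes, and 13 had intervals above 1, against 22.9% of all genes and 32.3% of genes with at least 5 FPKM in a library of the pair. The median ratio was 1.19 and the median log2 change 0.22, beside -0.02 over all genes, and the summed level went from 456 to 500.1 FPKM. Hsd17b7 (ENSMUSG00000026675, chromosome 1, 169949535 to 169969241) had the largest ratio of the members, 1.81 (1.65 to 1.98), from 7.42 to 13.4 FPKM, followed by Msmo1 (ENSMUSG00000031604, chromosome 8, 64718139 to 64733792) with 1.60 (1.51 to 1.69), from 16.3 to 26.1 FPKM. In both genes the luminal DMSO library was lower than the basal one, and with baicalin this order turned round.

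The other 11 cholesterol enzymes that were higher had ratios from 1.06 for Fdft1 to 1.26 for Idi1, with 1.26 (1.19 to 1.33) for Lss from 9.86 to 12.4 FPKM and 1.26 (1.19 to 1.33) for Sc5d from 23.3 to 29.3 FPKM. Fdft1 went from 37.0 to 39.3 FPKM and Sqle from 32.5 to 35.6 FPKM. Pmvk, with a ratio of 0.777 (0.717 to 0.843), and Fdps, with 0.835 (0.715 to 0.974), were the 2 with intervals below 1, as 28.7% of all genes had. The intervals of Hmgcs1, Ebp and Dhcr7 included 1, at 0.972 (0.941 to 1.0), 0.956 (0.890 to 1.03) and 0.986 (0.904 to 1.08), where Ebp had 34.5 and 32.9 FPKM and Dhcr7 9.0 and 8.87 FPKM. Acat2, which acts just before Hmgcs1, was higher at 1.24 (1.15 to 1.33), as was Mvk at 1.25 (1.11 to 1.42). The interval of Stard4 included 1 as well, at 1.05 (0.981 to 1.12). Among fatty acid enzymes, Fasn (ENSMUSG00000025153, chromosome 11, 120805846 to 120824547) went from 31.4 to 46.9 FPKM, a ratio of 1.5 (1.45 to 1.54), and Acaca from 9.58 to 12.6 FPKM, a ratio of 1.31 (1.26 to 1.38). Acly, at 103 and 98.9 FPKM, and Elovl6 were slightly lower, with ratios of 0.957 (0.932 to 0.983) and 0.925 (0.873 to 0.980). The 6 genes had a median ratio of 1.02.

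Set side by side, the ratio with baicalin was larger in the libraries labelled luminal than in those labelled basal for all 18 cholesterol enzymes, with counting intervals that did not overlap. Among all genes 17.3% had such intervals with the luminal ratio above, and 26.7% of the genes with at least 5 FPKM in a library. The quotient of the 2 ratios was 4.23 for Acat2, 3.20 for Nsdhl, 3.03 for Idi1 and 2.97 for Hsd17b7, and 1.44 for Dhcr7, the lowest of the 18. For 13 of them the interval lay below 1 in the pair labelled basal and above 1 in that labelled luminal, which 5.21% of all genes and 7.81% of those with at least 5 FPKM also showed. Of the other members, Stard4, Srebf2 and 5 of the 6 fatty acid enzymes had the larger ratio with the luminal label as well, while Srebf1 and Insig1 had the smaller one there. With 1 library per condition these differences have no residual to be tested against, and a difference between labels cannot be told apart from a difference between single cultures. Beside these values, 1 of 10 basal markers was higher with baicalin in the pair labelled basal and 5 of 10 in that labelled luminal. For the 10 luminal markers the counts were 3 and 2, and 50.9% and 45.6% of all genes were higher.

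**Figure D3:**
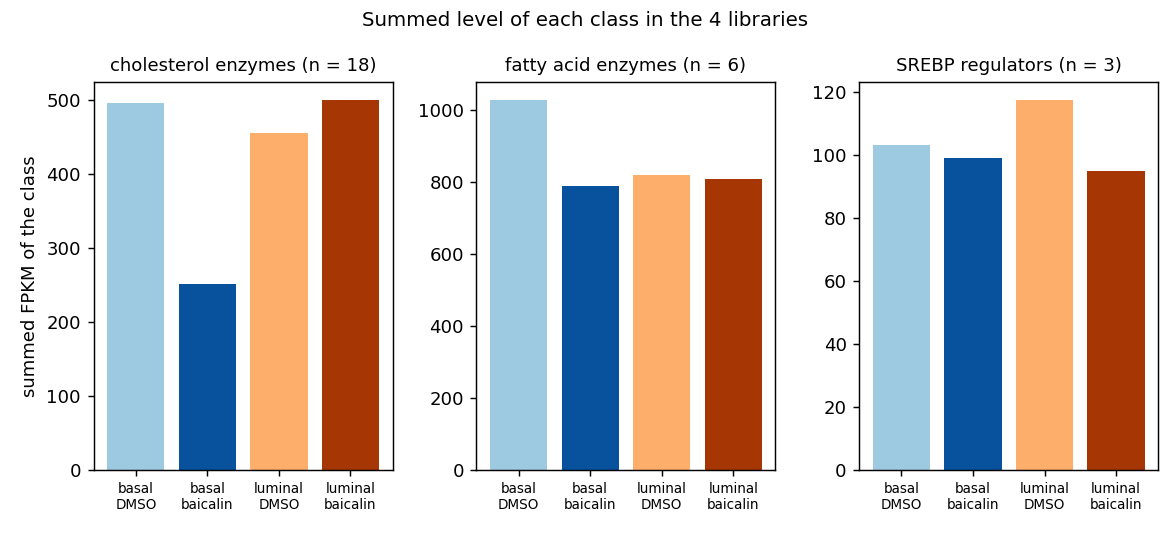
Summed FPKM (y axis, from 0) of the 18 cholesterol enzymes, the 6 fatty acid enzymes and the 3 SREBP regulators in each library, 1 bar per library. The cholesterol enzymes sum to 251 FPKM in the baicalin library labelled basal and to 456 to 500.1 FPKM in the other 3.

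The balance between the branches moved with these sums. The summed FPKM of the cholesterol enzymes was 0.484 of that of the fatty acid enzymes with DMSO and 0.318 with baicalin in the libraries labelled basal, and 0.556 and 0.619 in those labelled luminal. The fatty acid enzymes summed to 1026 and 789 FPKM in the former and to 820.3 and 807 FPKM in the latter. Without the abundant Scd1 and Scd2, the other 4 summed to 204, 156, 163 and 176 FPKM in the same order of libraries. The regulators summed to 103 and 99.2 FPKM with the basal label and 117 and 94.9 FPKM with the luminal label.

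With DMSO the cholesterol enzymes differed between the labels in both directions, with a median near 1. The counting interval of luminal over basal lay above 1 for 7 of the 18 and below 1 for 9. Of all 17787 genes, 5418 had intervals above 1 and 5361 below 1. Among those below 1 were Idi1 at 0.571, Hsd17b7 at 0.646 and Msmo1 at 0.648. The ratio of the luminal to the basal label had a median of 0.952 over the 18 genes, 8 higher and 10 lower where 47.5% of all genes were lower, and 1 passed the threshold, Dhcr7 (ENSMUSG00000058454, chromosome 7, 143823145 to 143848410), with 23.9 FPKM in the library labelled basal and 9.0 in the one labelled luminal and a ratio of 0.376 (0.349 to 0.404). Among all genes, 3.86% were lower past the threshold and 4.71% higher. The median log2 change was -0.07, and over the 9 cholesterol enzymes with neither a near-identical copy nor an exon overlap it was 0.11, so its sign rests on the choice of genes. Fdps differed most in the other direction, with a ratio of 2.11 (1.76 to 2.55). The fatty acid enzymes were lower with the luminal label in 5 of 6 genes, with a median ratio of 0.681, from Elovl6 at 0.490 (0.466 to 0.515) and Fasn at 0.618 (0.60 to 0.637) to Scd2 at 0.886 (0.875 to 0.898), and Acly at 1.02 (0.996 to 1.05) did not differ beyond counting error.

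With baicalin, 17 of the 18 cholesterol enzymes were higher in the library labelled luminal, as were 45.2% of all genes, and 10 passed the threshold upwards, where 5.24% of all genes did. The median ratio was 2.25 and the median log2 change 1.06, beside -0.03 over all genes. Acat2 had a ratio of 4.16 (3.76 to 4.62), Nsdhl 3.58 (3.26 to 3.93) and Pmvk 2.95 (2.61 to 3.33). Dhcr7 was again the exception, at 0.541 (0.501 to 0.583), so its order between the labels was the same with and without baicalin. The fatty acid enzymes had a median ratio of 0.973 with 3 higher and 3 lower. Since this comparison uses the same 4 libraries as the changes with baicalin, it restates them from another side.

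**Figure D4:**
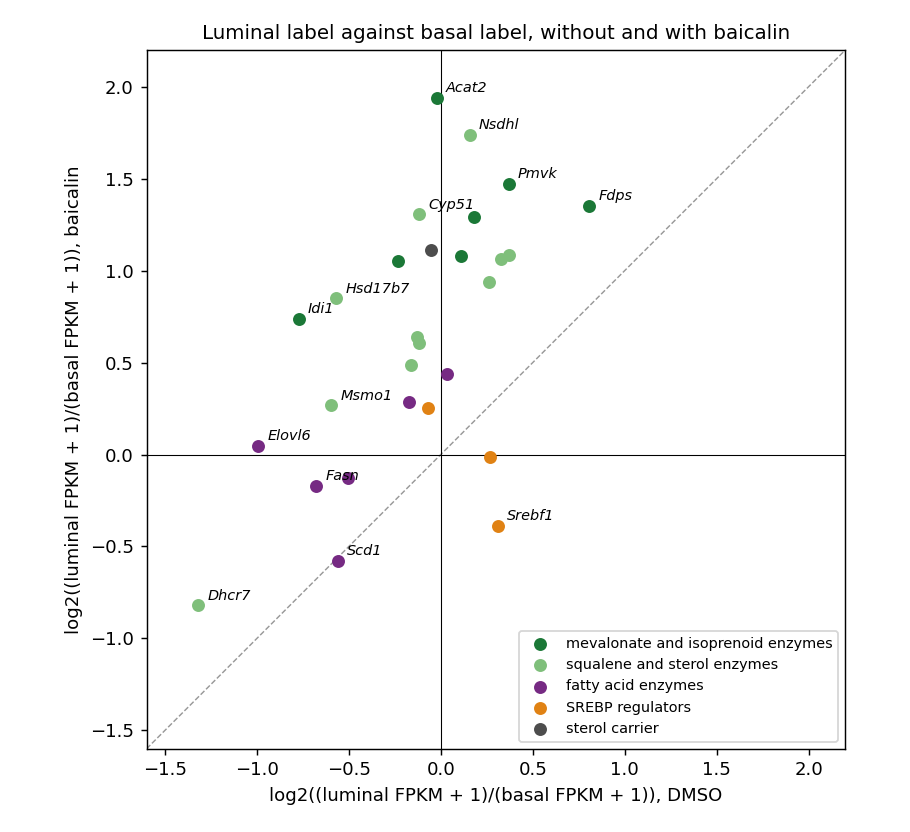
Log2 of luminal over basal label, with 1 FPKM added to each, in the DMSO libraries (x axis) and in the baicalin libraries (y axis), 1 point per gene coloured by class. Green points of the cholesterol enzymes lie above the dashed line of equal values, and Dhcr7, at -1.32 and -0.82, is the 1 cholesterol enzyme below 0 on the y axis.

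Genes around the pathway were read from 7 further lists of 67 genes, all of which were above 0 FPKM in every library. Their counts by direction stand against all genes tested, of which 50.9% were higher and 49.1% lower with baicalin under the basal label, and 45.6% higher and 54.4% lower under the luminal label. The SREBP processing genes Scap, Insig2, Mbtps1 and Mbtps2, which code for the escort, a retention protein and the proteases of SREBP, were all slightly higher under baicalin with the basal label, with a median log2 change of 0.16. Insig2 went from 18.3 to 23.8 FPKM and Scap from 11.4 to 13.5 FPKM. In those labelled luminal 3 of 4 were higher, with Mbtps2 from 3.83 to 5.23 FPKM and Mbtps1 from 22.5 to 17.4 FPKM. Of 7 genes of sterol export and LXR targets, 6 were higher with the basal label (median log2 change 0.24) and 4 with the luminal label (0.17). Abca1, the cholesterol exporter, went from 38.3 to 61.5 FPKM in the pair labelled basal and from 43.5 to 31.5 FPKM in that labelled luminal, the reverse of most cholesterol enzymes. Smpdl3a, a phosphodiesterase and LXR target, went from 6.95 to 14.8 FPKM with the basal label, and Abcg1, a further sterol exporter, from 4.38 to 9.58 FPKM with the luminal label.

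Of 9 genes of sterol uptake, storage and trafficking, 6 were higher and 3 lower with the basal label, and 6 and 3 with the luminal label. Tmem97, a sterol-regulated membrane protein gene, was lower in both pairs, from 20.7 to 10.3 FPKM and from 21.2 to 16.7 FPKM, whereas Npc1, the lysosomal cholesterol exporter, went from 8.39 to 13.1 FPKM with the basal label. Cyp27a1, a sterol hydroxylase, went from 0.499 to 1.45 FPKM with the luminal label. The 7 other isoprenoid enzymes, which draw on farnesyl diphosphate for geranylgeranyl groups, dolichol, coenzyme Q and protein prenylation, did not share the low values of the mevalonate enzymes with the basal label, with 5 higher, 2 lower and a median log2 change of 0.05. Among them Ggps1, geranylgeranyl diphosphate synthase, went from 10.1 to 13.8 FPKM, and Pdss1, of coenzyme Q synthesis, from 2.18 to 1.31 FPKM. With the luminal label 2 were higher and 5 lower, with Pdss1 from 2.30 to 1.47 FPKM and Fnta, a subunit of protein prenyltransferases, from 23.8 to 18.1 FPKM.

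Of 20 other genes of fatty acid supply, elongation and desaturation, 14 were lower under baicalin with the basal label and 12 with the luminal label, with median log2 changes of -0.11 and -0.12, where 49.1% and 54.4% of all genes were lower. The desaturase genes of polyunsaturated fatty acids were lower in both pairs. Fads2 went from 108 to 48.4 FPKM, a ratio of 0.448 (0.430 to 0.467), and from 154 to 102 FPKM, a ratio of 0.661 (0.641 to 0.682), and Fads1 from 44.1 to 23.1 and from 90.9 to 61.9 FPKM. With the luminal label, Elovl7, an elongase, went from 11 to 23.5 FPKM and Scd3, a desaturase of low level, from 0.506 to 1.44 FPKM. Among 8 genes of triglyceride and phospholipid synthesis, 7 were higher with the basal label and 5 with the luminal label, where 50.9% and 45.6% of all genes were higher. With the basal label, counting intervals lay above 1 for 5 and below 1 for 0, beside 28.1% and 26.3% of all genes. With the luminal label they lay above 1 for 1 and below 1 for 2, beside 22.9% and 28.7% of all genes. Plin2, which codes for a lipid droplet coat protein, was higher in both pairs, from 84.4 to 208 FPKM, a ratio of 2.46 (2.39 to 2.54), and from 49.2 to 77.2 FPKM, a ratio of 1.57 (1.5 to 1.64). Gpam, the acyltransferase that starts glycerolipid synthesis, went from 4.71 to 7.54 FPKM with the basal label, and Dgat2, which makes triglyceride, from 3.62 to 2.84 FPKM with the luminal label.

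The 12 genes of fatty acid oxidation split evenly with the basal label, 6 higher and 6 lower, and into 5 higher and 7 lower with the luminal label. Pdk4, a kinase that slows glucose oxidation, was higher in both, from 4.73 to 10.6 FPKM and from 1.81 to 10.1 FPKM, and was the only gene of this list past the threshold in either pair. Acadl, an acyl-CoA dehydrogenase, went from 185 to 128 FPKM with the basal label and Cpt1a, which admits fatty acids to mitochondria, from 64.1 to 34.1 FPKM with the luminal label. Over the 67 genes, 1 was lower past the threshold with the basal label, Fads2, and 2 were higher, Plin2 and Pdk4, where 3.33% of all genes were lower and 2.15% higher. With the luminal label none was lower and 2 were higher, Elovl7 and Pdk4, where 1.59% of all genes were lower and 2.37% higher.

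Several members share sequence or exon bases with other genes, and the strand setting of the authors' counting is not given in the sources used here. Acaca shares 6118 aligned bases with the processed pseudogene Gm5182, and summed over both its ratios were 0.994 with the basal label and 1.29 with the luminal label. Acat2 has a near-identical neighbour, Acat3, which held 12 fragments in the DMSO library labelled basal, and the summed ratio was 0.291 with the basal label. It also shares 435 bases at 99.1% identity with the chaperonin gene Tcp1, which held 8690 fragments in that library where Acat2 held 1510, and the sum of these 2 genes, mostly Tcp1, had ratios of 0.737 with the basal label and 1.01 with the luminal label. How many fragments of that stretch were assigned to Acat2 is not known, so its value is uncertain. Fdft1 overlaps 774 exon bases of the lysosomal protease gene Ctsb on the opposite strand, and Cyp51 overlaps 166 of Akap9, so without strand their reads there could not be told apart. Tm7sf2 overlaps 532 exon bases of Vps51 on the same strand, where strand would not separate the reads. Vps51 held 41 fragments in the DMSO library labelled basal and Tm7sf2 held 128, so the value of Tm7sf2 is uncertain too. Of the 18 cholesterol enzymes, 9 had neither a near-identical copy nor an exon overlap.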

How the data were processed

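Polyadenylated RNA of 4 cultures, 1 per condition, was sequenced by the authors. Per the study's methods they mapped reads with HISAT2 to GRCm38 (Ensembl release 94), counted fragments per gene with featureCounts 1.5.0, and deposited FPKM values in 1 table. The submitters' processing notes also list Bowtie 0.12.2, with no role given. The strand setting is not given in the sources used here. The deposited FPKM values were multiplied by the exon length of each gene in GENCODE mouse release 21, which held 54409 of the 54446 genes. The step between low values gave the depth of each library. Within a tolerance of 0.05 fragments, 98.6% to 98.8% of genes below 30 fragments came out whole, as did 25 of the 28 members (not Scd1, Scd2 and Tm7sf2). Library depth was 19356103 to 20648791 counted fragments. Ratios carry 95% exact Clopper-Pearson intervals (scipy 1.17.1) from these fragments, which cover counting error only, since reads without molecular identifiers are not independent molecules.

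Genes above 0 FPKM in all 4 libraries were compared on the log2(FPKM + 1) scale, with a threshold of 1 as in the study's methods. With 1 library per condition no statistical test was run. Counts and medians of each list stand beside those over all genes tested, and in part over genes of at least 5 FPKM in a library compared. The members, the lists of related genes, the markers and the tests were chosen with earlier results of these data known. All 28 members are named, and from each related list up to 2 genes per cell label, those with the largest absolute log2 change among genes of at least 1 FPKM. Copies were sought by aligning transcripts with minimap2 2.31 (at least 200 bases at 95% identity). Python 3.11.15, numpy 2.4.6, pandas 2.3.3 and matplotlib 3.10.9 were used. On simulated data the depth was recovered fully in all 4 comparisons, and of 200 genes changed 4-fold, 100% were called in both comparisons of baicalin with DMSO and 99.5% in both between labels, with 25 to 34 unchanged genes called per comparison of 18870 to 19921. The simulated counts held counting error only, and the changed genes were drawn from those of at least 5 FPKM in both libraries. These figures check the calculation and cannot measure false calls that arise from variation between cultures. Alternatives were other pseudocounts, gene filters, scalings and thresholds, the given strand only for promoter motifs, and, chosen after seeing the data, only members with no copy or overlap.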

Additional observations from a re-analysis of the deposited data

Results flagged for a closer look

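The 28 members were screened together with the genes named from the related lists, which had been picked for large changes. In 19 of these genes the libraries labelled basal and those labelled luminal differed from their DMSO library in opposite directions, each beyond counting error. The difference between the labels was not tested, since each condition is 1 library. Of the 19 genes 16 are members and 3 were named from the related lists. In all, 15 were lower with baicalin in the basal pair and higher in the luminal pair, each of them a member. Among all genes 5.21% had such intervals, and 7.81% of those with at least 5 FPKM in a library. The share of all genes in the other direction was not counted. Unnamed genes of the related lists were not screened, and some met the same rule, such as Elovl1 with ratios of 0.756 (basal pair) and 1.30 (luminal pair). Given as the log2 change with the luminal label minus that with the basal label, the differences in the mevalonate branch were 1.96 for Acat2, 1.51 for Idi1, 1.11 for Mvd and 0.97 for Mvk. Among the squalene and sterol enzymes they were 1.58 for Nsdhl, 1.42 for Cyp51, 1.42 for Hsd17b7, 0.86 for Msmo1, 0.77 for Fdft1, 0.73 for Sqle, 0.72 for Lss, 0.68 for Tm7sf2 and 0.65 for Sc5d. Scd2 had 0.46 and Srebf2 0.32. The other 4 of the 19 genes went the opposite way, higher with baicalin in the basal pair and lower in the luminal pair. Their differences were -0.70 for Srebf1, -0.43 for Mbtps1, -1.12 for Abca1 and -0.79 for Gpam. The part that cell makeup has in these differences was not tested. Beside them, 1 of 10 basal markers was higher with baicalin in the basal pair and 5 of 10 in the luminal pair. For the 10 luminal markers the counts were 3 and 2, and 50.9% and 45.6% of all genes were higher.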

How the results depend on the processing

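No paired analysis was possible because each comparison sets 1 library against 1 library, and an additive fit of baicalin over both labels was not run. Of 179 alternative values of the main results, 132 stayed within 1.5 times the count or within the median counting error of the members. Of 448 values of single members, 404 moved by no more than the mean reach of their counting interval to either side, on the log2 scale. Those 448 values came only from other pseudocounts, TPM scaling and centring on the median of all genes. No value past the threshold changed sign. List medians near 0 did so in 3 cases, which were the cholesterol enzymes between the DMSO libraries, the fatty acid enzymes between the baicalin libraries, and the SREBP regulators between the baicalin libraries, whose median went from -0.01 to 0.02 with centring on the median of all genes. The limits are that no replicate shows the spread between cultures and that marker genes go against the cell labels.

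In the order basal pair, luminal pair, luminal over basal with DMSO and luminal over basal with baicalin, 975, 703, 1523 and 1463 of all genes passed the threshold. With a pseudocount of 0.1 FPKM the counts were 2425, 1965, 3494 and 3357, with none 3747, 3096, 4798 and 4635, with TPM scaling 1698, 1296, 2585 and 2522, at a threshold of 0.5 they were 3424, 2899, 4717 and 4409, and at 2 they were 173, 106, 335 and 301. Of the members, 8 were lower in the basal pair, 1 was lower between the DMSO libraries and 11 were higher between the baicalin libraries. In the basal pair the median log2 change of the cholesterol enzymes was -0.88 with no pseudocount. Members lower there numbered 16 at 0.5 and 0 at 2, where 1696 and 132 of all genes were lower. For the other comparisons, the totals of all genes given above count both directions together. In the luminal pair, 3 members were higher and 1 lower at 0.5. Between the DMSO libraries, 1 member was higher with a pseudocount of 0.1, with none and at 0.5, and members lower numbered 2 with a pseudocount of 0.1, with none, with TPM scaling and with centring on the median of all genes, 8 at 0.5 and 0 at 2. Between the baicalin libraries, 2 members were lower at 0.5 and 0 higher at 2. TPM scaling gave medians between the DMSO libraries of -0.18 for cholesterol enzymes, -0.65 for fatty acid enzymes and 0.17 for SREBP regulators, and between the baicalin libraries of -0.11 for fatty acid enzymes and -0.08 for the regulators.

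With only members that have no copy or overlap, an alternative chosen after seeing the data, the median of the cholesterol enzymes was -0.68 in the basal pair and 0.11 between the DMSO libraries, and that of the fatty acid enzymes, then 2 genes, was -0.21, 0.25, -0.32 and 0.14 in the order above. On the given strand alone, 10 of the 27 promoter windows of members held CCAAT (37.0%), against 21.1% of all windows. Some moves follow from the settings alone. Fewer genes enter where members are left out, and a search of the given strand alone cannot find more matches. A lower threshold passes more genes, and a smaller pseudocount shrinks changes less. The cause of the other moves was not tested.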
